A study of Mus musculus with 12 samples.

Results

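The myosin light chain genes of striated muscle were examined as a set of 5: *Myl1*, *Mylpf*, *Myl4*, *Myl3* and *Myl2*. They were chosen by name among the genes whose light chains belong to the myosin of skeletal and cardiac muscle, without the atrial *Myl7*. The choice was made with earlier results of these data known. All probe sets that carried 1 of the 5 symbols alone were taken, 8 probe sets of 45037. The brightest probe set by mean over the 12 arrays stood for each of the 5 genes among 18193 genes measured. RNA from tongues of C57BL/6J mouse embryos at embryonic day 13.5 had been hybridised to Affymetrix 430 2.0 arrays. The mutant group held 6 arrays of the genotype Myf5-Cre;Smad4flox/flox, in which both copies of *Smad4* can be removed by the Cre. The control group held 6 arrays of the genotype Myf5-Cre;Smad4flox/+, which keeps a wild-type copy. Both groups carried Myf5-Cre and at least 1 floxed copy of *Smad4*, and no group without Cre was analysed here. Cre under *Myf5* control acts in the muscle lineage, whereas the RNA came from the whole tongue. The sources used here do not give the form of the Cre allele, litter, the number of tongues per array or the scan batch. The p-values set each difference against the spread between these arrays and take the arrays as independent, which the labels cannot show.

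Each striated muscle myosin has a pair of heavy chains, and the neck of each heavy chain binds an essential and a regulatory light chain. The light chains stiffen the neck, which swings as a lever when the motor works on actin. Muscle fibre types and the heart use different genes for the same position. *Myl1* encodes the essential and *Mylpf* the regulatory light chain of fast skeletal muscle. *Myl4* encodes the essential chain of embryonic skeletal muscle and of the atrium, and *Myl3* and *Myl2* encode the essential and regulatory chains of slow skeletal muscle and of the ventricle. In the embryonic tongue the muscle is skeletal.

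The promoters of the genes whose signal passed the test are shown to give the sequence around each start site. They are RefSeq sequences of build GRCm38.p6, each 300 bases long, with 250 bases before the start and 50 bases from the start on, written 5′ to 3′ on the gene's own strand. Capitals mark matches to the motifs described after the sequences.
*Myl1*, chr1:66945007-66945306, minus strand: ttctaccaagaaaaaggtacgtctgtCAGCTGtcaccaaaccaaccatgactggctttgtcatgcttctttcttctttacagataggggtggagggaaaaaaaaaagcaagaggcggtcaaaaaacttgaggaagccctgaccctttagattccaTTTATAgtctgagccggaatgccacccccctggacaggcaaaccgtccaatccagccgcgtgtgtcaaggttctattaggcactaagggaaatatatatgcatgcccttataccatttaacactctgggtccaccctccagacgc
*Mylpf*, chr7:127211358-127211657, plus strand: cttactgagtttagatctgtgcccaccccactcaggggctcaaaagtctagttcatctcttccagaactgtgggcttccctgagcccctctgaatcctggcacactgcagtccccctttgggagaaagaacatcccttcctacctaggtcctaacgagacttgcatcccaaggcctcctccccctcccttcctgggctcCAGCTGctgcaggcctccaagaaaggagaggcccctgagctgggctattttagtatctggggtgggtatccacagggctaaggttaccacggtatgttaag
*Myl4*, chr11:104550413-104550712, plus strand: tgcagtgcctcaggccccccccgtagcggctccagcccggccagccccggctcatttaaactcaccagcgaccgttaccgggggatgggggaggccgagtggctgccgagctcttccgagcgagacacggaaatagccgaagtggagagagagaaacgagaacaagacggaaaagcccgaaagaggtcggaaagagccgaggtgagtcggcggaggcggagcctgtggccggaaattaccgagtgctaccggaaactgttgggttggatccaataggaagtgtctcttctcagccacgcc
The motifs were searched on both strands. They were the E-box CANNTG, which the myogenic factors bind, its form CAGCTG, the TATA box TATAAA, the CArG box of serum response factor and the MEF2 site. Every CAGCTG is also an E-box. Among 32851 promoters of this length, 72.3% held an E-box, 16.3% CAGCTG, 13.6% TATAAA, 1.63% a CArG box and 3.19% a MEF2 site. The *Myl1* window held CAGCTG, its first base 224 bases upstream of the start, and TATAAA on the reverse strand, 95 bases upstream. The *Mylpf* window held CAGCTG 51 bases upstream. None of these letters was found in the *Myl4* window. Of the genes not printed, *Myl3* (chr9:110763428-110763727) held an E-box 189 bases upstream and a CArG box 85 bases upstream. *Myl2* has 2 starts in the table. The window of the first start (chr5:122092474-122092773) held an E-box 22 bases upstream and CAGCTG at base 34 after the start. The window of the second (chr5:122092939-122093238) held CAGCTG 130 bases upstream, E-boxes 48 bases upstream and at base 30 after the start, and TATAAA on the reverse strand 216 bases upstream. These matches are descriptions of the letters, not sites shown to be bound.

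The arrays differed as follows. *Smad4* read a lowest value of 11.58, a median of 12.25 and a highest value of 12.30 on mutant arrays, against 12.16, 12.30 and 12.35 on control arrays, and the difference of −0.15 ± 0.10 (SE) did not pass (limma adjusted p = 0.427). Mutant 1 had the lowest *Smad4* value, and without it the difference was −0.04. Whether its probes fall in the floxed segment is unknown here, so this probe set does not check the genotype. The first principal component held 35.0% of the variance and placed the mutants between 2.90 and 24.7 and the controls between −16.7 and −9.44, with mutants 1 and 2 farthest from the controls at 24.7 and 20.3. Control 3, mutant 4 and mutant 6 carried signal of both *Xist* and the Y-linked *Eif2s3y*.

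The light chains of fast muscle and of embryonic muscle were lower in the mutant tongue. Of the 5 genes, 3 passed and were lower, *Myl1*, *Mylpf* and *Myl4*, against a background of 4.80% of all genes that were lower and 6.30% that were higher at the same threshold, an adjusted p of 0.05 in limma. At least 1.5-fold lower were 2 of the 5, against 1.47% of all genes. Every mutant array lay below every control array for the same 3 genes, against 2.90% of all genes. All 5 genes had a lower mean in mutants, and all 5 had an unadjusted p under 0.05 (limma). The shares of all genes that meet these looser conditions were not counted, so no conclusion is drawn from either count. The median difference over the 5 genes was −0.65 on the log2 scale, beside 0.01 over all genes. Since whole tongues were measured, fewer muscle cells and less light chain RNA per muscle cell cannot be told apart.

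*Myl1*, the essential light chain of fast muscle, read a lowest value of 13.18, a median of 13.56 and a highest value of 13.88 log2 units on mutant arrays, against 14.08, 14.22 and 14.30 on control arrays. The groups did not overlap, and mutants spread more widely than controls. Mutant 1 was lowest and mutant 5 lay nearest to the controls. The means were 13.56 ± 0.23 in mutants and 14.22 ± 0.08 in controls (SD, n = 6 each). *Myl1* was 1.58-fold lower in mutants, a difference of −0.66 ± 0.09 (SE, limma adjusted p = 0.000688). Its probe set, 1452651_a_at, is the only *Myl1* probe set used and was brighter than 99.4% of all probe sets.

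*Mylpf*, the regulatory partner of *Myl1* in fast fibres, read 13.72, 13.88 and 14.06 log2 units as lowest, median and highest values on mutant arrays, against 14.15, 14.37 and 14.49 on control arrays. The groups were separate, with the highest mutant, mutant 2, just under the lowest control, control 1. The means were 13.88 ± 0.14 in mutants and 14.36 ± 0.11 in controls (SD, n = 6 each). *Mylpf* was 1.39-fold lower in mutants, a difference of −0.48 ± 0.07 (SE, limma adjusted p = 0.000978). Its probe set 1448371_at was brighter than 99.5% of all probe sets.

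*Myl4*, the essential chain that skeletal muscle makes as an embryo and the atrium keeps in the adult, read 12.87, 13.02 and 13.20 log2 units as lowest, median and highest values on mutant arrays, against 13.44, 13.75 and 13.80 on control arrays. The groups did not overlap. Mutant 1 was again lowest and control 1 was the lowest control. The means were 13.02 ± 0.14 in mutants and 13.69 ± 0.14 in controls (SD, n = 6 each). *Myl4* was 1.58-fold lower in mutants, a difference of −0.66 ± 0.08 (SE, limma adjusted p = 0.000338). A second and much dimmer *Myl4* probe set, 1457126_at, gave the same direction. It read 6.29, 6.46 and 6.74 on mutant arrays, against 6.75, 6.91 and 7.18 on control arrays, with no overlap. Its difference was −0.44 ± 0.08 (SE, limma adjusted p = 0.00793 over all probe sets). The brighter set, 1422580_at, exceeded 99.0% of all probe sets and the dimmer 56.6%.

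**Figure D1:**
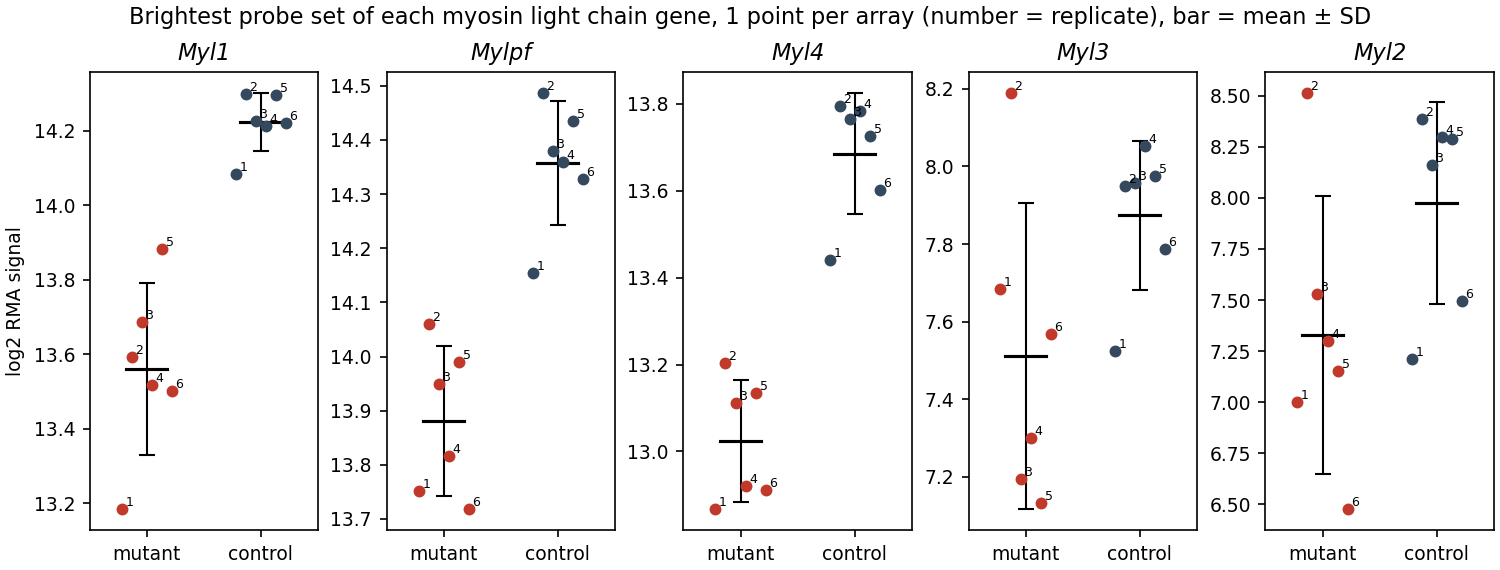
log2 RMA signal (vertical axis) of the brightest probe set of each gene, with 6 mutant arrays on the left and 6 control arrays on the right of each panel, points numbered by replicate and bars giving mean ± SD. The groups are separate for *Myl1*, *Mylpf* and *Myl4* and overlap for *Myl3* and *Myl2*, where mutant 2 is the highest of all arrays.

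The slow and ventricular light chains had lower means in mutants but did not pass. *Myl3*, the essential chain of this type, read 7.13, 7.43 and 8.19 log2 units as lowest, median and highest values on mutant arrays, against 7.52, 7.95 and 8.05 on control arrays. The groups overlapped, with 3 mutants below all controls and mutant 2 above all controls. The means were 7.51 ± 0.39 in mutants and 7.87 ± 0.19 in controls (SD, n = 6 each). The difference was −0.36 ± 0.16 (SE, limma adjusted p = 0.168). *Myl3* had 2 further probe sets, whose suffixes mark probes that may also bind other transcripts. The probe set 1427768_s_at read 6.62, 7.05 and 8.45 on mutant arrays, against 7.04, 7.97 and 8.09 on control arrays (difference −0.55 ± 0.27 SE, limma adjusted p = 0.311 over all probe sets). The probe set 1427769_x_at read 6.77, 6.92 and 7.68 on mutant arrays, against 6.97, 7.46 and 7.66 on control arrays (difference −0.35 ± 0.15 SE, limma adjusted p = 0.215). In both, mutant 2 was again the highest of the 12 arrays.

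*Myl2*, the regulatory partner of *Myl3*, varied more between arrays than any other member. It read 6.48, 7.23 and 8.51 log2 units as lowest, median and highest values on mutant arrays, against 7.21, 8.22 and 8.39 on control arrays. Mutant 6 was the lowest of the mutants and control 1 the lowest of the controls, and mutant 2 exceeded every control. The means were 7.33 ± 0.68 in mutants and 7.97 ± 0.49 in controls (SD, n = 6 each). The difference was −0.65 ± 0.30 (SE, limma adjusted p = 0.194), near that of *Myl1* in size but with a larger error. The probe sets of *Myl3* (1428266_at) and *Myl2* (1448394_at) were brighter than 65.6% and 65.2% of all probe sets. Over all 8 probe sets of the 5 genes, 8 had a lower mean in mutants and 4 passed as lower, against 2.70% of all probe sets.

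The calls of both slow genes changed when mutant 2 was left out. Without this array *Myl3* differed by −0.50 (limma adjusted p = 0.0193) and *Myl2* by −0.88 (limma adjusted p = 0.0355), so that all 5 genes passed. Without mutants 1 and 2 together, *Myl3* differed by −0.58 (limma adjusted p = 0.0111) and *Myl2* by −0.86 (limma adjusted p = 0.0828). *Myl1*, *Mylpf* and *Myl4* passed with each of the 12 arrays left out in turn. Their differences then ran from −0.73 to −0.59 for *Myl1*, from −0.52 to −0.44 for *Mylpf* and from −0.71 to −0.63 for *Myl4*.

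**Figure D2:**
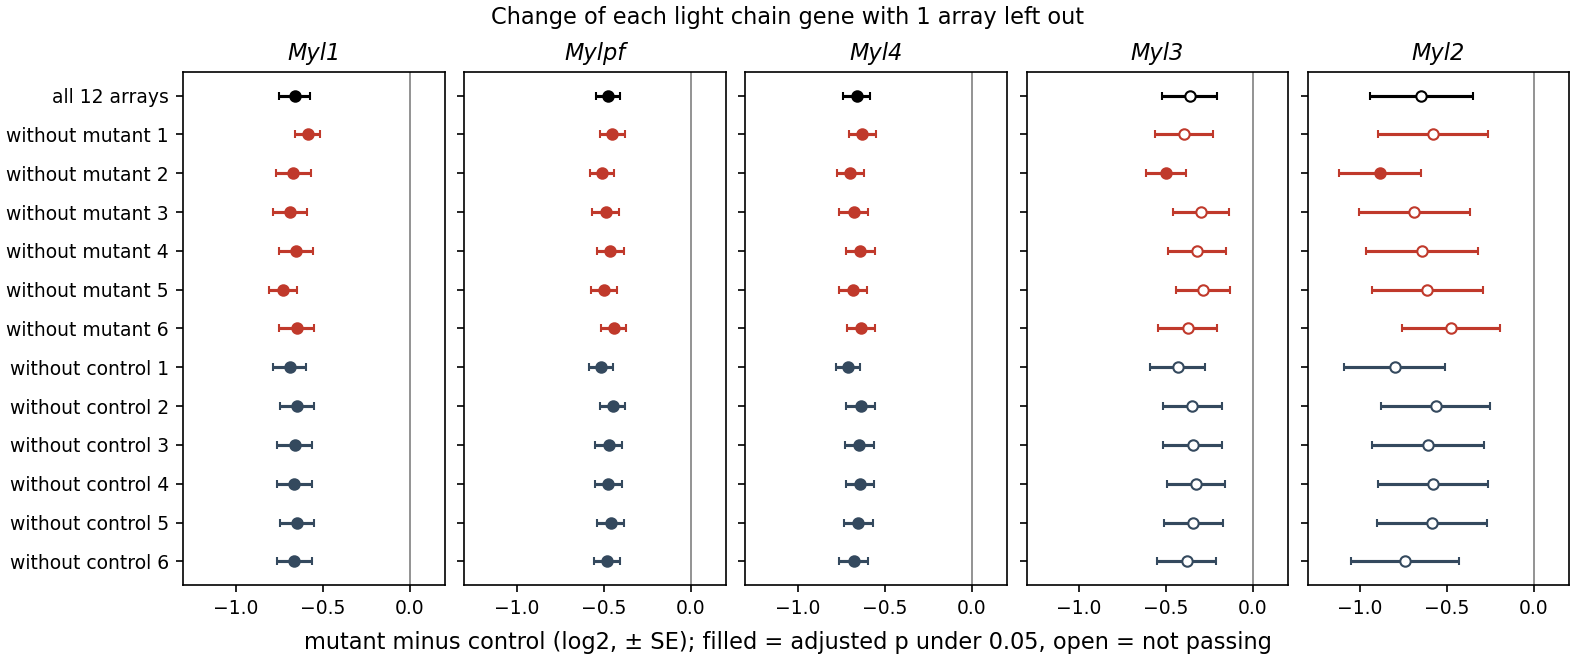
Difference between mutant and control (horizontal axis, log2, bars ± SE) of each gene with each array left out in turn, filled points having an adjusted p under 0.05 in limma. *Myl1*, *Mylpf* and *Myl4* stay filled throughout, and *Myl3* and *Myl2* are filled only where mutant 2 is left out.

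Relative to the control mean of each gene, mutant 2 lay at +0.31 for *Myl3* and +0.54 for *Myl2*. The other 5 mutants lay between −0.74 and −0.19 for *Myl3* and between −1.50 and −0.45 for *Myl2*. The same array was under the control mean for *Myl1* (−0.63), *Mylpf* (−0.30) and *Myl4* (−0.48), though it was the highest mutant for *Mylpf* and *Myl4*, where the others reached −0.37 and −0.55. Other genes of slow fibres were also under their control means on mutant 2, chosen for this comparison after the array was seen to stand apart. *Myh7*, the slow and ventricular heavy chain, lay at −0.46 there, inside the range of the other mutants (−1.14 to −0.31). The troponin genes of slow muscle lay at −0.40 for *Tnnc1*, −0.39 for *Tnni1* and −0.88 for *Tnnt1*. For *Tnnc1* and *Tnni1* mutant 2 was the highest mutant, the others reaching −0.45 and −0.49. Among these genes it exceeded the control mean for *Myl3* and *Myl2* alone.

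Markers of cardiac muscle were set beside this, because the heart also uses *Myl2* and *Myl3*. Of 12 measured, 8 read under the median of all probe sets (6.13), 1 passed as lower and 1 as higher. Over all genes 4.80% passed as lower and 6.30% as higher. The marker that passed as higher was *Ryr2*. Its difference ran from 0.53 to 0.69 with single arrays left out, and it passed in all 12 such fits. It missed the threshold without control 3, mutant 4 and mutant 6 (limma adjusted p = 0.0612). Averaged over its probe sets, *Ryr2* differed by 0.31 (limma adjusted p = 0.00751). The mean of the list relative to controls ran from −0.37 to −0.03 on mutant arrays and from −0.09 to 0.07 on control arrays, and its lowest value was that of mutant 2. *Nppa*, the atrial natriuretic peptide gene, was near the bottom of the scale, at 3.77 ± 0.14 in mutants and 3.83 ± 0.15 in controls. *Myl7*, the atrial regulatory light chain, read 5.32 ± 0.08 in mutants and 5.36 ± 0.09 in controls. *Myh6*, the atrial heavy chain, differed by −0.66 ± 0.28 (SE, limma adjusted p = 0.165). *Nkx2-5*, a factor of the heart that also marks other embryonic tissue, was lower at 8.59 ± 0.78 in mutants, against 9.62 ± 0.16 in controls (SD, n = 6 each, limma adjusted p = 0.0309). It missed the threshold with 7 of the 12 arrays left out singly, mutant 2 among them (limma adjusted p = 0.0705). Without mutant 2 *Myh6* differed by −0.49 and *Nkx2-5* by −0.90, smaller falls than with all arrays. Both genes thus took part in the low list mean of mutant 2. Whether heart tissue was present in any sample was not tested.

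**Figure D3:**
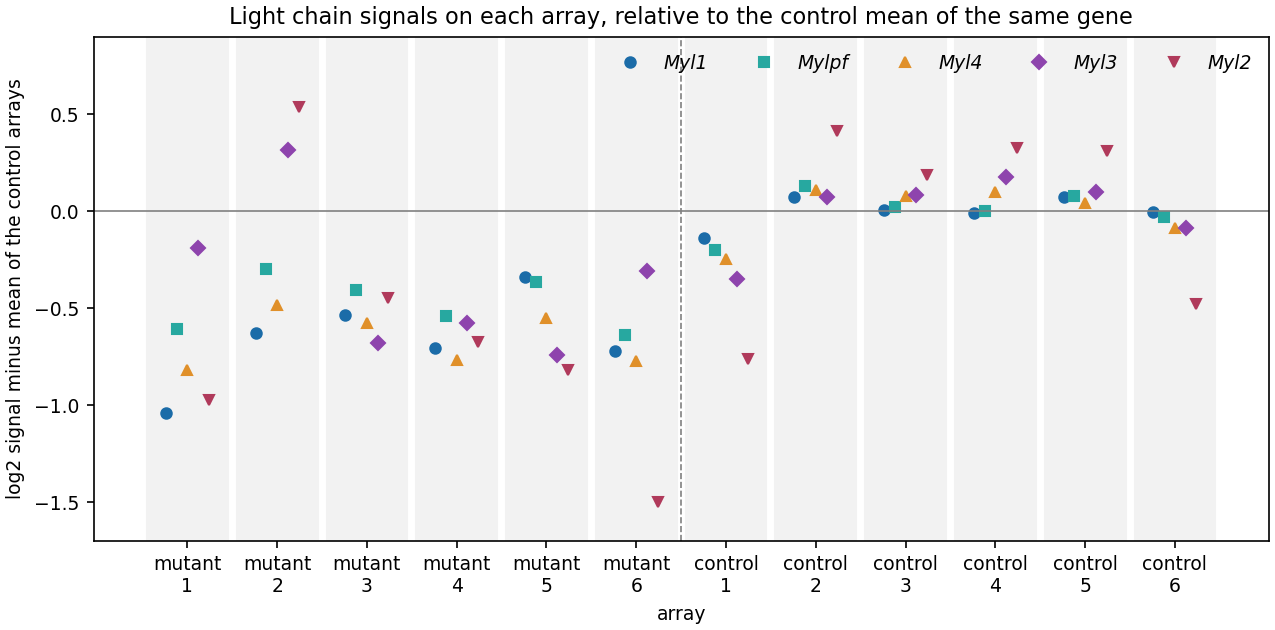
Signal of each light chain gene on each array (log2, vertical axis) minus the mean of the 6 control arrays, with mutants on the left and controls on the right. *Myl3* and *Myl2* rise above 0 on mutant 2 alone among the mutants, and control 1 is the lowest control for all 5 genes.

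Control 1 was the lowest control for every member. It lay at −0.14 for *Myl1*, −0.20 for *Mylpf*, −0.24 for *Myl4*, −0.35 for *Myl3* and −0.76 for *Myl2* relative to the control mean. Markers of skeletal muscle were lowest on the same control array, with a list mean of −0.36, while the other controls reached 0.19. The light chains thus stood low with the other muscle genes on this array.

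Whether members changed by different amounts was asked within each array, where the signal of a gene, centred on its mean, was subtracted from that of another. The test was a 2-sided exact permutation test over 6 and 6 arrays, whose smallest possible p is 0.00216, adjusted over 10 such differences. The difference *Myl1* minus *Mylpf* was −0.09 ± 0.17 in mutants and 0.09 ± 0.04 in controls (SD, n = 6 each), a change of −0.19 ± 0.07 (SE, exact p = 0.0173, adjusted p = 0.0866), with 5 of 6 mutants below all controls. Without mutant 5 it was −0.23 (exact adjusted p = 0.0108), and without mutants 1 and 2 it was −0.088 (exact adjusted p = 0.206). *Myl4* minus *Myl1*, the essential chains of embryonic and fast muscle, changed by 0.00 ± 0.07 (SE, exact adjusted p = 0.994).

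Between the slow and the fast genes the intervals were wide. *Myl3* minus *Myl1*, the essential chains, changed by 0.30 ± 0.23 (SE, exact adjusted p = 0.375). It ran from 0.17 to 0.44 with single arrays left out and was 0.00081 without mutants 1 and 2. *Myl2* minus *Mylpf*, the regulatory chains, changed by −0.17 ± 0.28 (SE, exact adjusted p = 0.698). *Myl3* minus *Myl2* changed by 0.28 ± 0.27 (SE, exact adjusted p = 0.479). A difference in response between the slow and the fast light chains was therefore not shown by these arrays, nor was an equal response.

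Each member was also set against the median of 39 other sarcomere genes of the same array. *Mylpf* fell less than this median, though not less than each of these genes. The difference was 0.14 ± 0.08 in mutants and −0.16 ± 0.09 in controls (SD, n = 6 each). This was a change of 0.31 ± 0.05 (SE, exact p = 0.00216, adjusted p = 0.0216), with 6 of 6 mutants above all controls. *Myl4* changed by 0.12 ± 0.05 (SE, exact adjusted p = 0.124) and *Myl1* by 0.12 ± 0.08 (SE, exact adjusted p = 0.312). *Myl3* changed by 0.42 ± 0.18 (SE, exact adjusted p = 0.124), or 0.19 without mutants 1 and 2, and *Myl2* by 0.13 ± 0.28 (SE, exact adjusted p = 0.750). *Mylpf* gave 0.29 without control 3, mutant 4 and mutant 6 and 0.30 without control 6 and mutant 6 (exact adjusted p = 0.159 and 0.0794), where fewer arrays also limit the p. The comparison was repeated with the 7 sarcomere genes whose mean signal was above 13 log2 units, a choice made after seeing the data. These genes, *Acta1*, *Actc1*, *Tnnt1*, *Tnni1*, *Tnnc1*, *Tnnc2* and *Tpm1*, had a median difference of −0.59. Against them the change of *Mylpf* was 0.09 ± 0.02 (SE, exact adjusted p = 0.0433), and that of *Myl4* turned to −0.09 ± 0.03 (SE, exact adjusted p = 0.0433). *Myl1* turned to −0.09 (exact adjusted p = 0.451) and *Myl2* to −0.08 (exact adjusted p = 0.875). How far brightness compresses the differences of these probe sets was not tested.

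**Figure D4:**
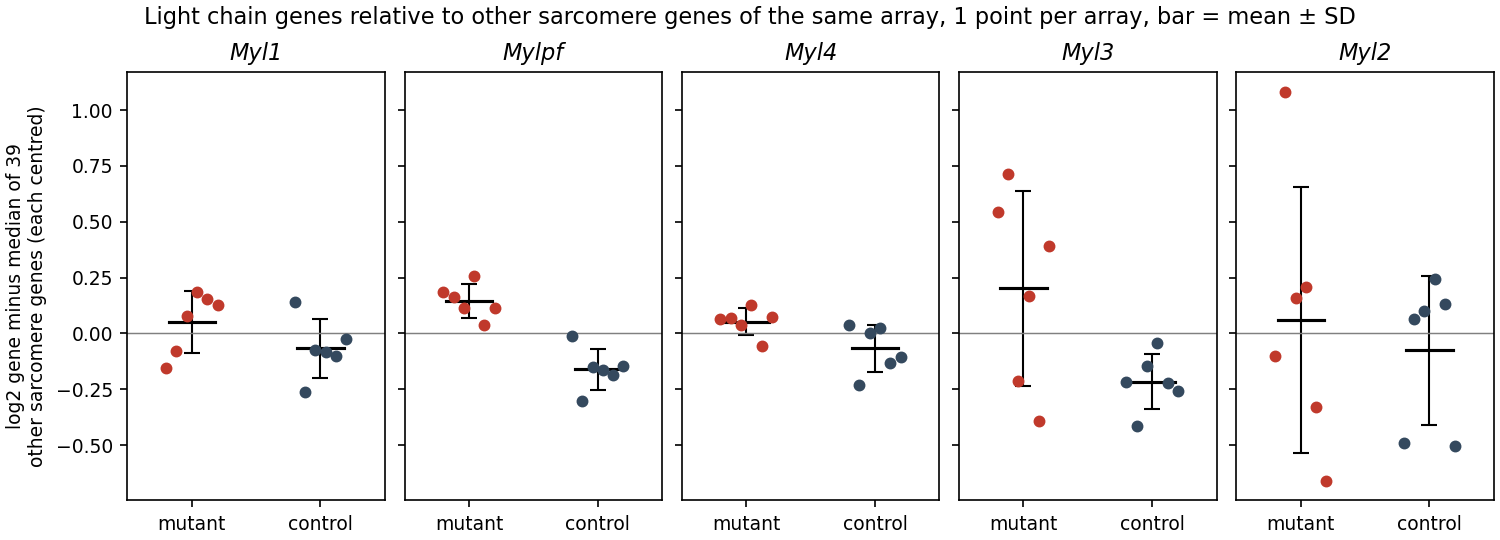
Signal of each light chain gene minus the median of 39 other sarcomere genes of the same array (log2, vertical axis, each gene centred), mutants left and controls right, bars giving mean ± SD. The 6 mutant points of *Mylpf* lie above all control points, and the other genes overlap between the groups.

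The other myosin light chain genes, which serve smooth muscle, the atrium and cells outside muscle or are shared between tissues, numbered 7 measured. Of these, 3 passed as lower and 0 as higher, against 4.80% and 6.30% of all genes, with a median difference of −0.11. *Myl9*, the regulatory light chain of smooth muscle, differed most. It read 10.70, 10.87 and 11.07 log2 units as lowest, median and highest values on mutant arrays, against 11.38, 11.77 and 11.82 on control arrays, with no overlap. The difference was −0.79 ± 0.08 (SE, limma adjusted p = 0.000243). *Myl12a*, a regulatory light chain of non-muscle myosin, differed by −0.21 ± 0.06 (SE, limma adjusted p = 0.0380), and *Myl10*, a dim regulatory light chain gene, by −0.21 ± 0.06 (SE, limma adjusted p = 0.0340). By their brightest probe sets *Myl10* and *Myl12a* each missed the threshold with 8 of the 12 arrays left out singly. Without mutants 1 and 2 *Myl9* alone passed in this list. A dimmer *Myl12a* probe set differed by −0.35 ± 0.06 (SE, limma adjusted p = 0.00496 over all probe sets). On it 6 of 6 mutants lay below all controls. *Myl6* (−0.11), *Myl6b* (−0.08), *Myl7* (−0.04) and *Myl12b* (−0.02), essential and regulatory chains of non-muscle cells, of the atrium or shared between tissues, did not pass.

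The heavy chains that the light chains bind were lower as well. Of 8 measured heavy chains of striated muscle, 5 passed as lower and 0 as higher, with a median difference of −0.69. The shares over all genes were 4.80% and 6.30%. *Myh3*, the embryonic heavy chain, read 13.57 ± 0.09 in mutants and 14.02 ± 0.13 in controls (SD, n = 6 each), a difference of −0.45 ± 0.06 (SE, limma adjusted p = 0.000787). *Myh8*, the perinatal chain, differed by −1.39 ± 0.18 (SE, limma adjusted p = 0.000463). The adult fast chains *Myh4* and *Myh1* differed by −1.10 and −1.44 (limma adjusted p = 0.00404 and 0.0152), and the slow chain *Myh7* by −0.72 (limma adjusted p = 0.00610). A dimmer *Myh1* probe set differed by −1.45 (limma adjusted p = 0.0533 over all probe sets). Another *Myh1* set differed by 0.01 and a dimmer *Myh4* set by −0.03, both under the median of all probe sets in signal. *Myh7b* (−0.23), *Myh2* (−0.20) and *Myh6* (−0.66) did not pass. All 8 had an unadjusted p under 0.05 in the lower direction (limma), a condition for which the share of all genes was not counted. Among 4 heavy chains of smooth muscle and non-muscle myosin, 0 passed as lower and 1 as higher, *Myh14* (0.28 ± 0.06 SE, limma adjusted p = 0.00610), which missed the threshold without control 3, mutant 4 and mutant 6 (0.0590).

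Enzymes that act on regulatory light chains were mixed. Of 14 measured kinases, phosphatase subunits and related regulators, 3 passed as lower and 2 as higher, with a median of −0.01. Over all genes 4.80% passed as lower and 6.30% as higher. *Mylk4*, a myosin light chain kinase family member, read 10.37 ± 0.52 in mutants and 11.50 ± 0.17 in controls (SD, n = 6 each), a difference of −1.12 ± 0.19 (SE, limma adjusted p = 0.00247). *Mylk3*, the cardiac light chain kinase, differed by −0.72 ± 0.12 (SE, limma adjusted p = 0.00207) at a dim signal. *Mylk*, the kinase of smooth muscle and non-muscle cells, was higher by 0.37 ± 0.10 (SE, limma adjusted p = 0.0301), but missed the threshold with 5 of the 12 arrays left out singly. Its dimmer probe sets differed by 0.34 and 0.00. *Mylk2*, another light chain kinase gene, differed by 0.03 averaged over its probe sets and did not pass. By its brightest probe set it missed the threshold with each of the 12 arrays left out singly. *Mylip*, a ubiquitin ligase named for its binding to a regulatory light chain, was higher by 0.30 ± 0.06 (SE, limma adjusted p = 0.00730), and missed the threshold without mutants 1 and 2 (0.0546).

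**Figure D5:**
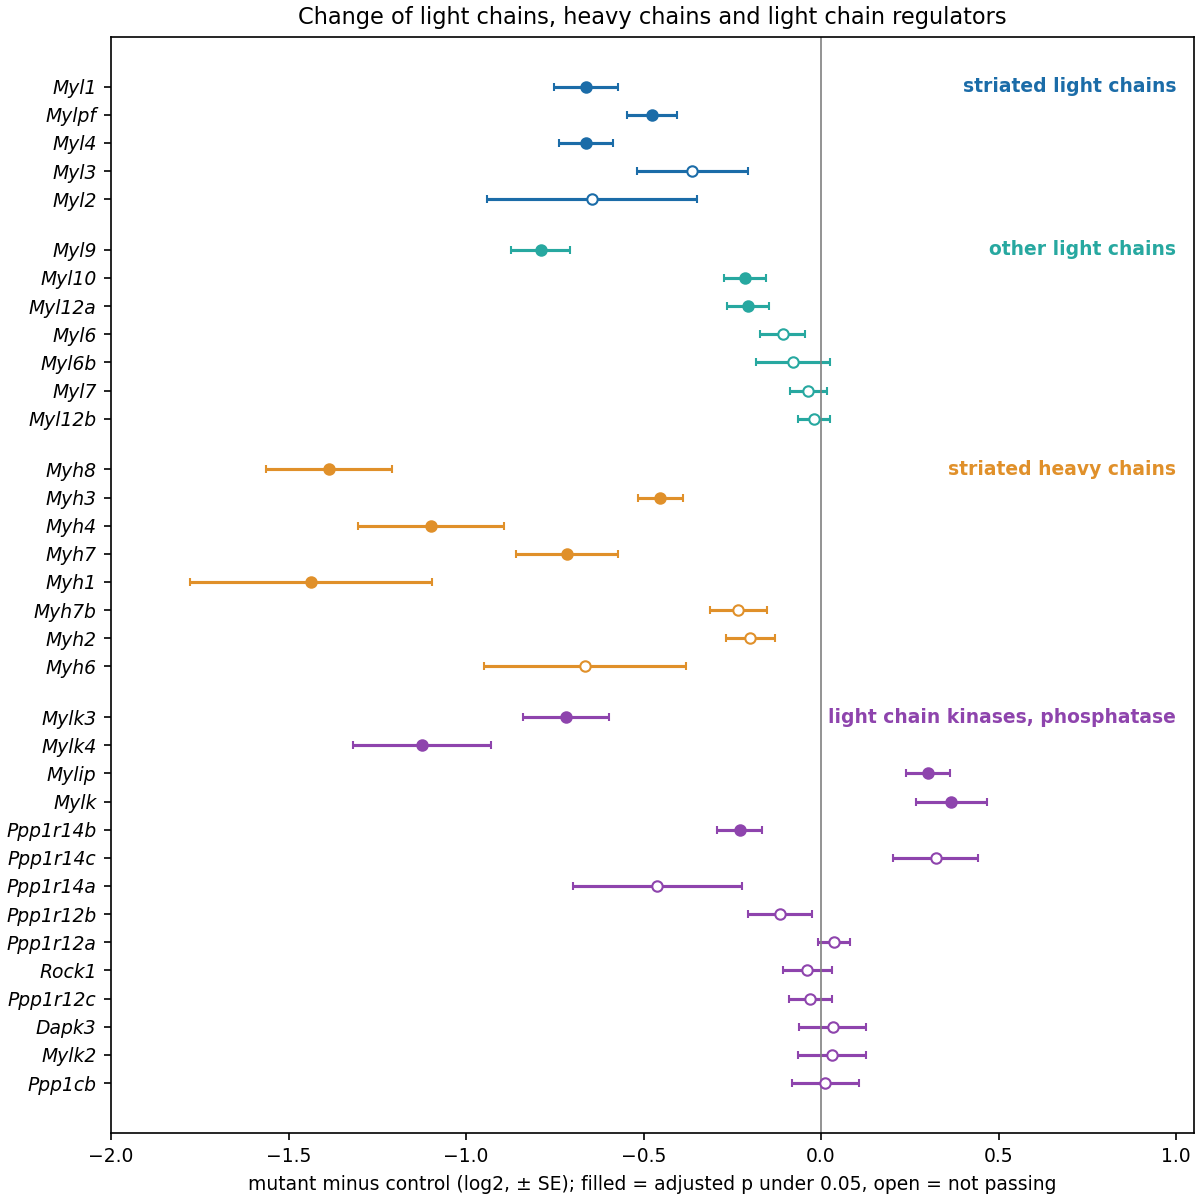
Difference between mutant and control (horizontal axis, log2, bars ± SE) of the 5 light chain genes and of the other light chain, heavy chain and regulator genes, filled points having an adjusted p under 0.05 in limma. *Myl1*, *Mylpf* and *Myl4* lie left of 0 with short error bars, and *Myl2* and *Myl3* have open points.

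Other genes of muscle moved with the light chains, beside 4.80% of all genes that passed as lower and 6.30% as higher. Of 39 other sarcomere genes 31 passed as lower and 0 as higher, with a median of −0.81. The smallest adjusted p were those of *Myoz1* (−1.01), *Myot* (−1.15), *Trim63* (−1.12) and *Tnnc1* (−0.58). Averaged over its probe sets, *Myoz1* differed by −0.51 (limma adjusted p = 0.000747). Of 14 myogenic regulators 12 passed as lower and 0 as higher, with a median of −0.69, among them *Myf5* (−1.81) and *Myog* (−0.72). The count of regulators was 9 to 12 with single arrays left out, 7 without mutants 1 and 2 and 5 without control 3, mutant 4 and mutant 6. The mean of 12 skeletal muscle markers relative to controls ran from −1.25 to −0.54 on mutant arrays and from −0.36 to 0.19 on control arrays. Of 8 smooth muscle markers 5 passed as lower, with *Tagln* at −0.92, while the defining *Myh11* (0.04) and *Cnn1* (−0.13) were dim and did not pass.

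Markers of several other cell types were higher in the mutants. The shares over all genes were 6.30% passing as higher and 4.80% as lower. Of 11 neuron markers 8 passed as higher, with list means of 0.25 to 1.02 on mutant arrays and −0.11 to 0.14 on control arrays. Of 12 cranial mesenchyme markers 8 passed as higher and 2 as lower, with list means of 0.12 to 0.41 on mutant arrays and −0.08 to 0.05 on control arrays. Of 11 oral epithelium markers 5 passed as higher, 1 of 12 endothelium markers did, and 0 of 9 erythroid markers did in limma, where 0 had an unadjusted p under 0.05 and a higher mean. With single arrays left out the oral epithelium count was 3 to 6 and the endothelium count 0 to 2. The endothelium count was thus near the share over all genes. Without mutants 1 and 2, 5 mesenchyme, 1 oral epithelium and 0 endothelium markers passed as higher, and 0 mesenchyme markers as lower. The part of a changed cell make-up in the light chain differences was not tested.

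The genes whose signals varied most like each member were found among 12168 genes above the median signal, as the correlation over the 12 arrays after the mean of each genotype was taken off. These arrays share RNA samples and normalisation, so the values are descriptions. *Mylpf* varied most like *Tnnc2* (r = 0.987) and *Tnnt3* (0.961), troponin genes of fast fibres. *Myl1* varied most like *Dclk1* (0.982), a microtubule-associated kinase gene, and *Unc45b* (0.956), a myosin chaperone gene. *Myl4* varied most like *Srpk3* (0.987), a muscle kinase gene, and *Hspb2* (0.966), a small heat shock protein gene. *Myl2* varied most like *Tnni2* (0.930), the troponin I of fast fibres, and *Snap91* (0.923), a gene of clathrin coats. *Myl3* varied most like *Meis1* (0.893), a homeobox gene, and *Map1lc3a* (0.892), a gene of autophagy. *Meis1* was higher in mutants by 0.41 (limma adjusted p = 0.00813) and *Map1lc3a* differed by −0.02 (0.861). Among 12168 genes searched over 12 arrays, the highest r can be large by chance. No conclusion about *Myl3* is drawn from these genes.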

How the data were processed

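Tongue RNA of 6 mutant and 6 control samples had been measured with 1 array per sample. The authors deposited log2 signals per probe set made with RMA, per the submitters' processing notes. The RMA software and the log base are not given in the sources, and base 2 was read off the range of values (2.57 to 15.09). The medians of the arrays, 6.09 to 6.17, were close, and the values were used as deposited. RMA makes the arrays alike in distribution, so a shift of most genes would not be seen, and it compresses changes of dim probe sets. Precision is limited by the number of arrays, since signals have no read depth. Groups came from the genotype labels. A free-text label that speaks of a different sort of embryo was disregarded.

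Of 45101 probe sets, 64 controls were left out. By the platform annotation, 34945 had a single symbol, 932 had several and 9160 had none. Symbols of 34741 were looked up in RefSeq names of GRCm38.p6 and 0 changed. Promoters are of that assembly. Protein sequences were not analysed here. Genotypes were compared over 18193 genes with limma 3.58.1 in R 4.3.3 (lmFit, eBayes, 2-sided, Benjamini-Hochberg over all genes, threshold 0.05), which was tested on simulated data. Brightness is given as the share of probe sets that were dimmer, and no abundance was compared between genes.

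The members and gene lists were chosen with earlier results of these data known. Named genes were the members, all other light chains and striated heavy chains, up to 4 passing genes of other lists, up to 2 of marker lists together with defining markers, and the 2 genes most like each member. *Smad4*, *Mylk2* and the slow genes read on mutant 2 were named outside this rule. The alternatives were the replicate number as a block, quantile normalisation, median centring, a mean over the probe sets of each gene, each probe set alone, no dim probe sets, array weights, limma's trend and robust options, each array left out, and 3 sets of arrays left out. Those sets were control 3, mutant 4 and mutant 6, control 6 and mutant 6, and mutants 1 and 2. The comparison with bright sarcomere genes was added after the data were seen. Array pairs correlated at 0.991 to 0.997 and had identical values for at most 0.149% of probe sets, and none was treated as a duplicate.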

Additional observations from a re-analysis of the deposited data

Results flagged for a closer look

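Among 33 measurements, each checked in both genotypes (66 groups of 6 arrays), 5 groups held an array whose gap to the nearest of the others was large for the range of the group. Chance gives such a gap in about 1 of 20 groups. For *Myl3*, control 1 read 7.04 on the probe set 1427768_s_at, the lowest of the controls, with the nearest at 7.80. Mutant 2 read 7.68 on the *Myl3* probe set 1427769_x_at, the highest of the mutants, with the nearest at 7.10. Control 1 was also the lowest control for *Myh7*, at 11.01, with the nearest at 11.51. Control 2 was the lowest control for *Myl6*, at 6.59 with the nearest at 6.80. Control 3 was the highest control for *Myh7b*, at 6.31 with the nearest at 6.05.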

How the results depend on the processing

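*Myl1*, *Mylpf* and *Myl4* were lower and passed under all 11 alternatives other than single arrays left out and in all 12 of those. With single arrays left out, *Myl3* differed by −0.50 to −0.29 and *Myl2* by −0.88 to −0.48, and each passed only without mutant 2. Members passing then numbered 3 to 5 and genes passing 1398 to 2103. Genes passing numbered 875 without mutants 1 and 2 and 836 without control 3, mutant 4 and mutant 6. Without mutants 1 and 2 *Myl3* differed by −0.58 (limma adjusted p = 0.0111). Same-numbered mutant and control arrays deviated together with r from −0.06 to 0.24. The r was over 0.1 for 5 of 6 numbers and 4 of 6 mutants matched their own number best, a hint of pairing in the data. Number 3, at −0.06, fell short, and no label ties the numbers to a litter or batch, so they were not taken as pairs. With the replicate number as a block, *Myl2* differed by −0.65 (limma adjusted p = 0.0396), and *Mylpf* minus other sarcomere genes by 0.31 (exact adjusted p = 0.156, where the smallest p a pairing allows is 0.0313). This comparison of *Mylpf* gave 0.29 (0.159) without control 3, mutant 4 and mutant 6 and 0.30 (0.0794) without control 6 and mutant 6, where fewer arrays allow no adjusted p under 0.0794 if 1 difference passes alone.

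With single arrays left out, the change ran from 0.17 to 0.44 for *Myl3* minus *Myl1*, from −0.23 to −0.14 for *Myl1* minus *Mylpf*, from −0.043 to 0.043 for *Myl4* minus *Myl1*, from 0.32 to 0.53 for *Myl3*, from 0.086 to 0.14 for *Myl4* and from −0.068 to 0.27 for *Myl2* minus other sarcomere genes. *Myl4* minus *Myl1* also gave −0.091 without mutants 1 and 2 and −0.0052 without control 6 and mutant 6, and *Myl3* minus *Myl1* gave 0.00081 without mutants 1 and 2. *Myl2* minus other sarcomere genes gave −0.10 without mutants 1 and 2, and *Myl2* minus *Mylpf* gave 0.026 without control 3, mutant 4 and mutant 6. *Myl4* minus other sarcomere genes gave 0.13 (exact adjusted p = 0.0108) when probe sets of each gene were averaged. With bright sarcomere genes only, *Myl1* gave −0.094, *Myl2* −0.078 and *Myl4* −0.093. The cause of these changes was not tested.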
